A study of Mus musculus with 36 samples.

Results

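Synaptic vesicle and release machinery was described as 43 genes of the 18845 in the deposited expression table, chosen as a named list by gene symbol. The list holds vesicle proteins, calcium sensors, fusion proteins, active zone scaffolds and proteins of vesicle recycling, and all 43 were found. RNA was purified through HA-tagged ribosomes (RiboTag, in which Cre recombination adds the HA tag to the ribosomal protein Rpl22). Synapse-enriched muscle, called diaphragm here after the series' design text, came from Ribo-tag mice without Cre (Cre-negative) and from ChAT-Cre;Ribo-tag mice (Cre-positive). Spinal cord came from ChAT-Cre;Ribo-tag mice only. Each tissue and genotype was sampled at 4 ages, namely embryonic (E15.5), newborn (P0.5), postnatal day 10 (P10) and 2 months (called adult), with 3 libraries in each of 12 groups. ChAT-Cre marks cholinergic cells, of which spinal motor neurons are not the only kind, and RNA from a Cre-negative spinal cord was not analysed here. The labels do not say whether replicates are separate animals, so p-values measure the spread between these libraries, which may be technical.

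At a nerve terminal, vesicles filled with transmitter dock at the active zone, a protein scaffold on the presynaptic membrane. Calcium entry is sensed by synaptotagmins on the vesicle, and SNARE proteins on the vesicle (synaptobrevins, encoded by Vamp1 and Vamp2) and on the plasma membrane (Snap25, syntaxins) then fuse both membranes. The fused vesicle is retrieved by endocytosis, in which dynamin pinches the membrane and synaptojanin and endophilin help to remove the coat. Most of these proteins come in several isoforms, and at the neuromuscular junction of the adult mouse the Syt2 and Vamp1 forms are known to carry fast release.

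Vamp1 and Stx1a, which showed the largest rise and fall among the members from E15.5 to adult spinal cord on the log2(CPM + 1) scale, Syt1 and Syt2, which moved against each other, and Syn1, whose window holds several of the motifs searched, are introduced here with the 250 bases before their RefSeq start sites (GRCm38.p6, the assembly also called mm10; each 5′ to 3′ on the gene's strand). Capitals mark the left arm of the RE1 element (TTCAGCACC, bound by the repressor REST), its right arm (GGACAGC), the cAMP response element (TGACGTCA) and the GC box (GGGCGG), each searched on both strands. Vamp1 lies at chr6:125215331-125215580 (plus strand), Stx1a at chr5:135023232-135023481 (plus), the first Syt2 window at chr1:134646362-134646611 (plus), the first Syt1 window at chr10:109010976-109011225 (minus) and Syn1 at chrX:20920919-20921168 (minus).
Vamp1: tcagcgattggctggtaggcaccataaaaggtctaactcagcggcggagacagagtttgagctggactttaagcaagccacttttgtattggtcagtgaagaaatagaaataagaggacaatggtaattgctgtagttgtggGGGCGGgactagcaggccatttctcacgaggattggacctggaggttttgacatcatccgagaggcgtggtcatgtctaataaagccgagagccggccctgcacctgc
Stx1a: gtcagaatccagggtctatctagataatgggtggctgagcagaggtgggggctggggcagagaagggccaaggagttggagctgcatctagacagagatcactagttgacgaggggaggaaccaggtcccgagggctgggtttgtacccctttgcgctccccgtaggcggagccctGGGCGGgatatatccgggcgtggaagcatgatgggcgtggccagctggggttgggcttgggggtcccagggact
Syt1: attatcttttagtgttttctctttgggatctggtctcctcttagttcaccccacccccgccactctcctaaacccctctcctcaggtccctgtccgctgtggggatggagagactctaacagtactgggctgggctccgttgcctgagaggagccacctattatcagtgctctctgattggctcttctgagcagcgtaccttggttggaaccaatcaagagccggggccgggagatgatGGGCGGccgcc
Syt2: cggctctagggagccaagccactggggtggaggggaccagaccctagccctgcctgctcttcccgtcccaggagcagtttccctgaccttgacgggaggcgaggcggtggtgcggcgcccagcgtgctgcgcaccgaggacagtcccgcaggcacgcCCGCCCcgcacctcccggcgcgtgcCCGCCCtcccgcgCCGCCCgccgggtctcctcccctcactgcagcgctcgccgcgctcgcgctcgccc
Syn1: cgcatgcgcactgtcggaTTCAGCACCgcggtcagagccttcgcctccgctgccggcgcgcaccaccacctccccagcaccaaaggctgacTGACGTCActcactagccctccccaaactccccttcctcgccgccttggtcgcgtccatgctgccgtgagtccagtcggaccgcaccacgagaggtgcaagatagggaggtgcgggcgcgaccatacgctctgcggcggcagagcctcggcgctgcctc

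Promoter windows of 300 bases, from 250 before to 50 after the start, were matched for 35 of the 43 genes, in 43 windows. The Vamp1, Stx1a, Syt1 and Syt2 windows printed here all hold a GC box. Members that rose and members that fell were not compared for this motif. It was found in 30 of the 43 windows, against 35.7% of all 32851 windows, and the median GC content was 61.2% in the former and 52.4% in the latter. The left RE1 arm stood in the windows of Syn1, Unc13a and Ppfia3 (0.371% of all windows). In Syn1 it lay 232 to 224 bases before the start, and in Ppfia3 46 to 38 bases before it. In Unc13a both arms lay after the start, the left at bases 22 to 30 and the right at bases 7 to 13, on the opposite strand. The right arm alone was in 6.56% of all windows. The cAMP response element stood in Syn1, 159 to 152 bases before the start, and in Sh3gl2, 37 to 30 bases before it, against 1.79% of all windows. TATAAA was found in windows of Sv2b and Rab3b, against 13.6% overall. These matches describe letters in a window and no binding was measured.

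Depth, in units of 1000000 reads, was 63.7 to 71.8 in spinal cord libraries, 68.2 to 93.7 in Cre-negative and 86 to 107 in Cre-positive diaphragm libraries, and 3 reads amounted to at most 0.0471 CPM (reads per 1000000 of the library). In every group the library best fitted as a weighted sum of the other 2 was called intermediate, so each group has 1 by construction. Of its genes 46.4 to 56.8% lay between the values of the others in spinal cord, and 60.8 to 85% in diaphragm. For other libraries this share was 5.22 to 38.1%. In Cre-positive diaphragm at P0.5 the weights were 0.0345 and 0.965, so the library chosen there was close to 1 other. The intermediate library was replicate 3 in 9 of the 12 groups and in all 4 spinal cord groups. Results that depend on the intermediate library are given with and without it. The cholinergic genes Chat and Slc18a3 averaged 11.5 to 64.9 and 152 to 253 CPM in spinal cord. In Cre-positive diaphragm their group means reached at most 0.0784 and 0.549 CPM. Beside cholinergic genes the spinal cord libraries held RNA of markers of other cells, neurons included. The 4 inhibitory neuron markers summed to group medians of 32.1, 50.1, 51.6 and 36.2 CPM from E15.5 to adult. For 3 excitatory neuron markers these were 31.3, 27.4, 19.3 and 12.9 CPM. The summed level of 4 oligodendrocyte markers had group medians of 47.4, 693, 12678 and 1690 CPM from E15.5 to adult, and that of 5 skeletal muscle markers 851, 2754, 179 and 8.21 CPM. The 7 motor neuron markers summed to medians of 2104, 1483, 1748 and 1691 CPM and 6 general neuron markers to 9009, 9424, 12155 and 12654 CPM. The part of these shifts in the results that follow was not tested. In bulk RNA fewer cells of a type and less RNA per cell cannot be told apart.

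In spinal cord the release genes changed their mix with age and did not rise or fall as a block. From E15.5 to adult, Vamp1 rose 6.39-fold, Snap25 3.9-fold, Nsf 3.24-fold and Synj1 2.74-fold. Over the same span Stx1a fell 25.1-fold, Unc13b 19.2-fold (from 2.43 to 0.127 CPM), Erc2 4.66-fold, Syt1 3.5-fold, Syngr3 3.46-fold and Unc13a 3.47-fold. These folds are ratios of group mean CPM, and all the genes named were called in that direction under each scaling run. Of the 43 genes, 11 had their highest mean at E15.5, 13 at P0.5, 8 at P10 and 11 in the adult. The highest group mean was 2.37 times the lowest in the median gene, from 1.25 times for Dnajc5 to 25.1 times for Stx1a. Peak ages and these ratios were not computed for all genes, so they are not set against a background.

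By limma on log2(CPM + 1), with Benjamini-Hochberg adjusted p under 0.05 over all genes (a scale that understates the change of genes near or below 1 CPM), 17 members were higher and 23 lower in adult than E15.5 spinal cord. Over all genes tested 84.4% were called in that comparison, 26.3% higher and 58.1% lower, so the number of members called is near the background and the sizes and directions carry the description. The median member difference was -0.22 on the log2 scale, against -0.38 for all genes. Scaling with RLE size factors moved the all-gene median by 0.39, to 0.02, and turned the members to 22 higher and 15 lower. The shares of all genes called higher and lower were then nearly equal and are given with the further lists below. Under all 4 scalings run (CPM, quantile, RLE and TMM) 17 members rose and 15 fell. How many of all genes hold so was not counted, here or below, so such counts are not set against a background. Without the intermediate libraries 16 and 15 of these members were still called, when 74.7% of all genes were. The 8 called under CPM but not under every scaling were Syp, Syt4, Sv2a, Rab3a, Pclo, Ppfia3, Sncg and Dnajc5. Between neighbouring ages 30 members were called from E15.5 to P0.5 (19 higher and 11 lower), against 72.3% of all genes (27.9% higher and 44.4% lower). From P0.5 to P10 33 were called (14 higher and 19 lower), against 78.7% (35.2% and 43.5%), and from P10 to adult 34 (12 higher and 22 lower), against 67.9% (23.6% and 44.3%). The libraries of neighbouring ages did not overlap for 31, 34 and 36 of the 43 genes, and those of adult and E15.5 for 38. Over all genes these shares were 75.7, 81.2, 72.8 and 84.5%. Of the 43, 23 were called higher in at least 1 step and lower in another, 2 rose in every step and 2 fell in every step. How often all genes take such courses was not counted, so these counts are not set against a background.

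**Figure D1:**
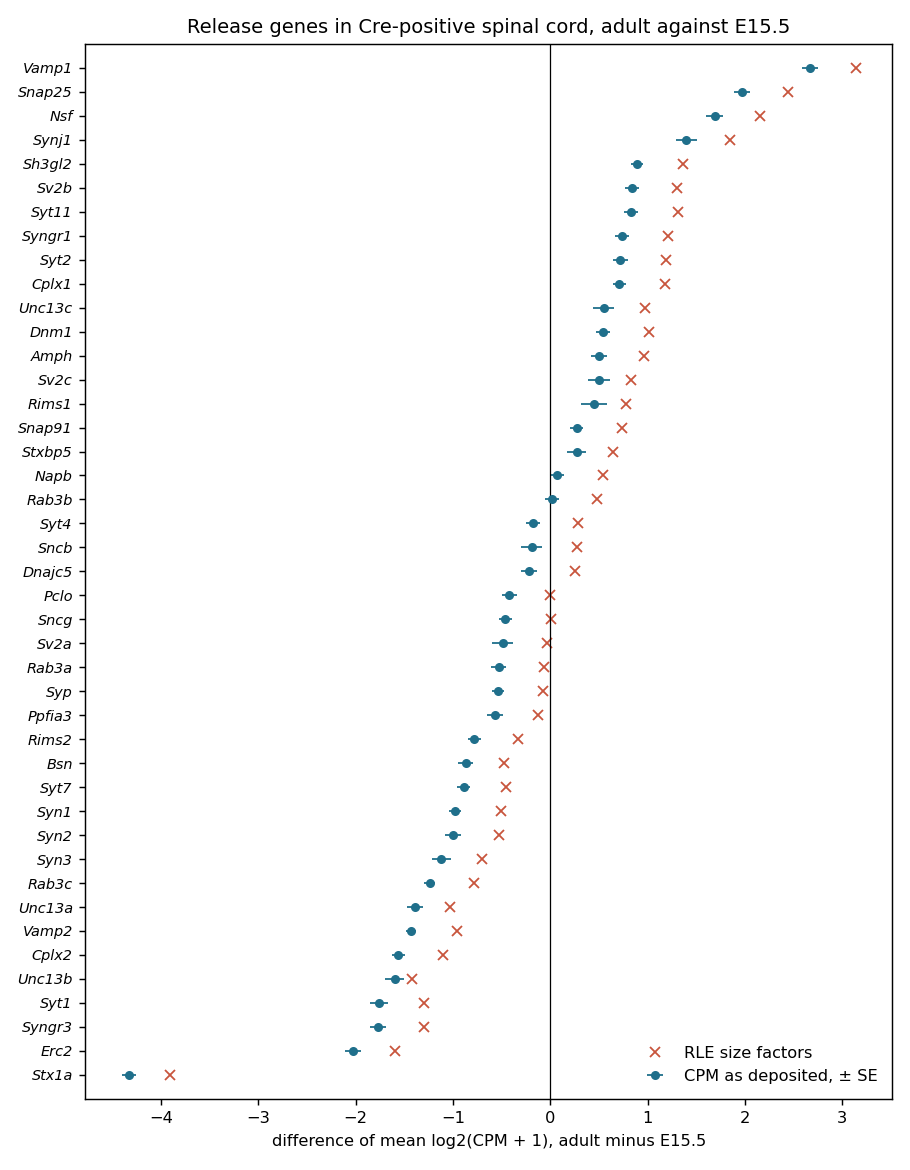
Difference of mean log2(CPM + 1), adult minus E15.5 spinal cord, for the 43 genes (circles with SE bars, 3 libraries a group; crosses show the same after RLE scaling). Vamp1 stands at 2.67 and Stx1a at -4.33, and RLE scaling shifts all genes to the right, which carries Syt4, Sncb, Dnajc5 and Sncg across 0.

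The SNARE proteins, which drive fusion, included both extremes. Vamp1, the vesicle SNARE synaptobrevin 1, read 110, 89.2 and 105 CPM at E15.5, then 398, 366 and 371 (P0.5), 475, 383 and 425 (P10) and 649, 636 and 660 (adult). All 3 libraries of each later age lay above all E15.5 libraries, the adult difference was 2.67 ± 0.08 (SE; adjusted p = 8.4e-14), and most of it was present by P0.5 (1.89 ± 0.08, adjusted p = 5.7e-11). The step from P0.5 to P10 did not pass the test (0.17 ± 0.08, adjusted p = 0.063).

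Vamp2, its relative synaptobrevin 2, read 329, 322 and 322 CPM at E15.5, then 330, 335 and 333 (P0.5), 246, 222 and 234 (P10) and 120, 117 and 122 (adult). Its values from E15.5 to P0.5 did not pass the test (0.04 ± 0.05, adjusted p = 0.53), and it then fell in both steps, by 0.51 to P10 and by 0.96 to the adult. Snap25, the membrane-bound partner on the plasma membrane, read 623, 507 and 582 CPM at E15.5, then 759, 693 and 788 (P0.5), 1022, 854 and 943 (P10) and 2229, 2233 and 2222 (adult). Its adult libraries lay above all others and spanned 2222 to 2233 CPM, and it rose in all 3 steps (0.39, 0.33 and 1.25, the last with adjusted p = 2.1e-09).

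Stx1a, syntaxin 1A, read 102, 91.6 and 97.4 CPM at E15.5, then 71.1, 72.1 and 70.5 (P0.5), 15.3, 16.9 and 16.7 (P10) and 3.69, 4.33 and 3.59 (adult). No age overlapped another. It fell by 0.44 at birth, by 2.06 to P10 and by 1.83 to the adult, and across the whole span by 4.33 (SE 0.07, adjusted p = 1.3e-16).

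**Figure D2:**
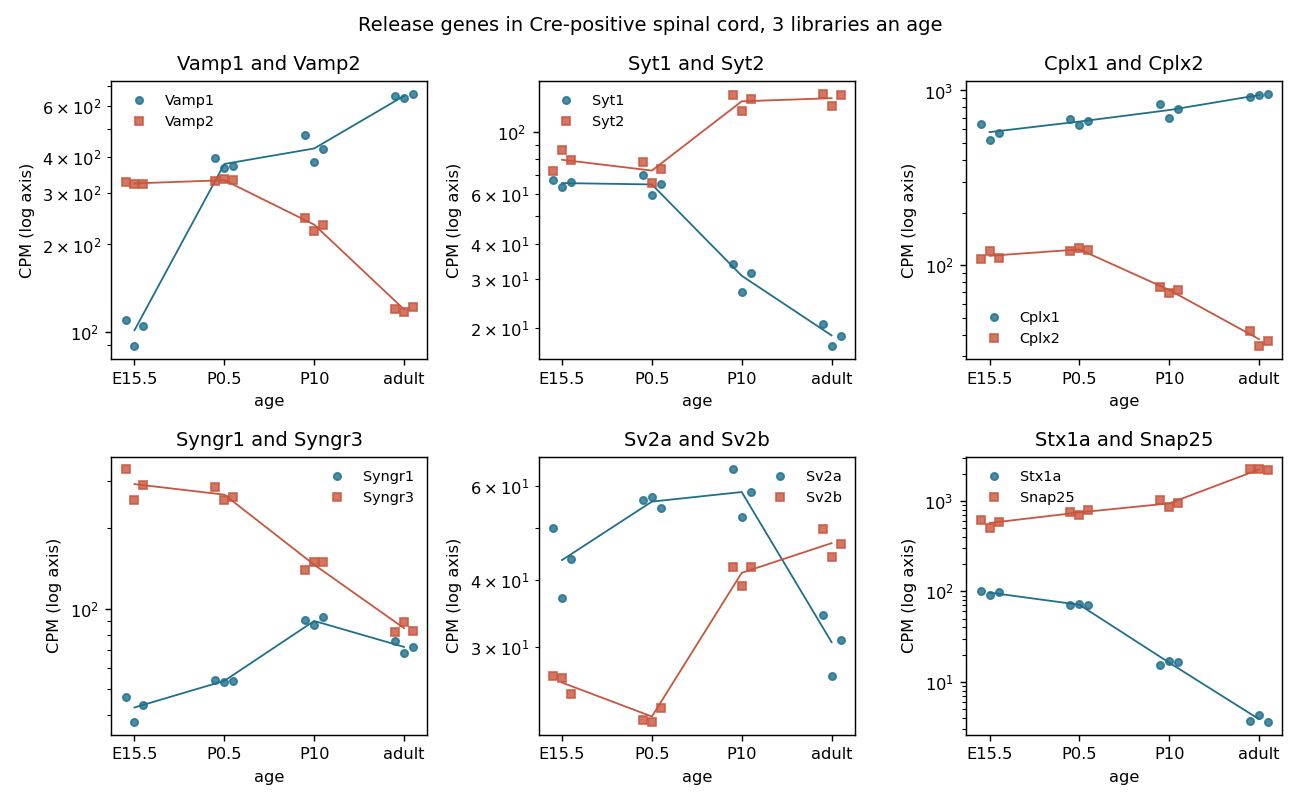
CPM in each Cre-positive spinal cord library by age (log axis; lines join group means, 3 libraries an age) for 6 pairs of genes. Vamp1 climbs from about 102 to 649 CPM as Vamp2 falls to 120, and Stx1a drops to 3.87 CPM as Snap25 reaches 2228.

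Among the remaining fusion factors Nsf moved most. Nsf, the ATPase that takes spent SNARE complexes apart, rose from 111 ± 4.06 CPM (mean ± SD, n = 3, as for all means in CPM that follow) at E15.5 to 199 ± 5.21 at P0.5, was 217 ± 35.6 at P10 and rose to 361 ± 17.3 in the adult (adult minus E15.5 1.69 ± 0.09, adjusted p = 6.2e-11). Napb, the beta form of its adaptor SNAP, had 171 ± 5.13 CPM at E15.5 and 179 ± 10.8 in the adult (0.07 ± 0.07, adjusted p = 0.36). Stxbp5 (tomosyn), which holds syntaxin back from fusion, ranged between group means of 3.55 and 4.61 CPM. Dnajc5 (cysteine string protein, a vesicle chaperone of Snap25) moved least, between 114 and 143 CPM.

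Synaptotagmins, the calcium sensors, moved in opposite directions. Syt1 read 67.2, 63.6 and 66.5 CPM at E15.5, then 70.4, 59.7 and 65 (P0.5), 33.9, 26.8 and 31.5 (P10) and 20.6, 17.2 and 18.7 (adult). Syt2 read 72.8, 86.3 and 79.8 CPM at E15.5, then 78.5, 66 and 74.1 (P0.5), 136, 119 and 131 (P10) and 137, 124 and 135 (adult). Neither passed the test between E15.5 and P0.5, and from P0.5 to P10 Syt1 fell by 1.06 (adjusted p = 2.2e-08) while Syt2 rose by 0.82 ± 0.08 (adjusted p = 1.4e-07), with no overlap in either gene. From P10 to the adult Syt1 fell by a further 0.68 and Syt2 differed by 0.04 ± 0.08 (adjusted p = 0.71).

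Of the other synaptotagmins, Syt4 and Syt11 bind calcium weakly and Syt7 is a slow high-affinity sensor. Syt4, whose adult difference from E15.5 changes sign with the scaling, had 223 ± 22.1 CPM at E15.5, 125 ± 6.09 at P0.5 and 80.7 ± 4.73 at P10, and returned to 195 ± 5.55 in the adult (rise of 1.26 ± 0.07, adjusted p = 7.2e-10). Syt11 was 323 ± 27.7 and 316 ± 19.9 CPM before and at birth, and 518 ± 42 and 576 ± 3.19 later. Syt7 peaked at P0.5, at 21.2 ± 0.644 CPM, and was lowest in the adult, at 8.55 ± 0.709.

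Complexins bind the assembled SNARE complex and set when it fuses. Cplx1 read 640, 522 and 571 CPM at E15.5, then 685, 635 and 672 (P0.5), 834, 700 and 784 (P10) and 917, 948 and 959 (adult). Cplx2 read 108, 121 and 110 CPM at E15.5, then 121, 126 and 122 (P0.5), 74.7, 69.5 and 71.9 (P10) and 41.8, 34.2 and 36.9 (adult). Cplx1 was higher in every adult library than in any E15.5 library (0.71 ± 0.07, adjusted p = 2.1e-07), and Cplx2 was lower in all of them (-1.56 ± 0.07, adjusted p = 8.0e-12). The single steps of Cplx1 were small, 0.20, 0.22 and 0.29, and none of the 3 kept its call without the intermediate libraries (adjusted p = 0.18, 0.12 and 0.056).

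Vesicle membrane proteins followed several courses. Sv2a, the most widespread SV2 glycoprotein, read 50, 37 and 43.9 CPM at E15.5, then 56.6, 57.3 and 54.5 (P0.5), 64.5, 52.6 and 58.4 (P10) and 34.5, 26.5 and 30.9 (adult). Sv2b read 26.5, 26.2 and 24.5 CPM at E15.5, then 21.9, 21.7 and 23.1 (P0.5), 42.4, 39.1 and 42.4 (P10) and 49.9, 44.2 and 46.7 (adult). Sv2c read 1.9, 1.87 and 1.83 CPM at E15.5, then 8.28, 6.29 and 7.7 (P0.5), 5.25, 3.93 and 5.13 (P10) and 2.8, 3.08 and 3.3 (adult).

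Sv2a fell from P10 to adult (-0.91 ± 0.11, adjusted p = 4.0e-06), whereas Sv2b rose between P0.5 and P10 by 0.86 ± 0.07 (adjusted p = 6.3e-09). Sv2c rose at birth by 1.55 ± 0.11 (adjusted p = 5.7e-09) and fell in both later steps, the second without a call under quantile scaling (-0.21, adjusted p = 0.076). All its P0.5 libraries stood above those of any other age. Synaptophysin, encoded by Syp and long used as a vesicle marker, was 410 ± 9.01 CPM at E15.5, 263 ± 16.4 at P0.5, 360 ± 26.3 at P10, and 281 ± 14.6 at 2 months. The synaptogyrins crossed in direction: Syngr1 rose from 42.7 ± 4.72 to 71.9 ± 3.59 CPM between E15.5 and adult and Syngr3 fell from 292 ± 38.8 to 84.5 ± 4.33.

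Synapsins tether vesicles in the reserve pool. Syn1 read 86.2, 77.7 and 87.1 CPM at E15.5, then 114, 109 and 116 (P0.5), 63.4, 58.3 and 61.4 (P10) and 41, 43.3 and 41.6 (adult). Syn2 read 141, 127 and 132 CPM at E15.5, then 215, 182 and 200 (P0.5), 119, 109 and 118 (P10) and 74.5, 59.5 and 65.5 (adult). Syn3 read 15.1, 12.4 and 14.1 CPM at E15.5, then 9.78, 10.3 and 9.49 (P0.5), 8.17, 7.11 and 7.3 (P10) and 6.93, 5.26 and 5.3 (adult).

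Syn1 and Syn2 ran in parallel, with their highest values at P0.5 and their lowest in the adult, which had 2.7-fold and 3-fold lower means. Syn3 was highest at E15.5, 2.37-fold above the adult. All 3 fell from E15.5 to adult under every scaling and without the intermediate libraries (-0.98, -1.0 and -1.12). The Syn1 promoter printed above carries the left RE1 arm and the cAMP response element, and neither was found in the Syn2 windows.

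The small GTPases of the Rab3 family ride on vesicles and bind the active zone. Rab3a read 906, 705 and 847 CPM at E15.5, then 969, 904 and 939 (P0.5), 937, 851 and 865 (P10) and 607, 522 and 563 (adult). Rab3b read 82.8, 71.2 and 79.2 CPM at E15.5, then 91.7, 93.7 and 95 (P0.5), 106, 97 and 105 (P10) and 84.7, 73.1 and 77.9 (adult). Rab3c read 66.7, 72.5 and 67.8 CPM at E15.5, then 35, 34.7 and 36.5 (P0.5), 46.4, 43.9 and 45.5 (P10) and 30.7, 26.7 and 28.6 (adult).

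Rab3a was lower in all adult libraries than at any earlier age, and its fall from P10 was 0.65 on the log2 scale (SE 0.08, adjusted p = 4.6e-06). Rab3b overlapped between adult and E15.5 (0.02 ± 0.07, adjusted p = 0.84). Rab3c fell at birth (-0.94 ± 0.06, adjusted p = 4.6e-09), rose by P10 and fell again.

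The synucleins are presynaptic proteins that bind vesicle membranes. Sncg, gamma-synuclein, known from motor and sensory neurons, read 3417, 2605 and 2986 CPM at E15.5, then 5657, 6022 and 5758 (P0.5), 1657, 1653 and 1658 (P10) and 2036, 2231 and 2235 (adult). Its P0.5 libraries lay far above all others, the rise at birth was 0.96 ± 0.07 (adjusted p = 2.4e-08) and the fall to P10 1.81 (adjusted p = 7.9e-12). Sncb read 184, 144 and 176 CPM at E15.5, then 129, 162 and 140 (P0.5), 229, 186 and 205 (P10) and 135, 159 and 146 (adult).

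Sncb overlapped between adult and E15.5 (-0.19 ± 0.11, adjusted p = 0.11, positive after RLE scaling) and had its highest mean at P10. For Sncg the adult difference from E15.5 was -0.46 and vanished with RLE scaling (0.01). The sum of the 43 genes was 8497 ± 678, 11867 ± 9.29, 7963 ± 469 and 9682 ± 95.5 CPM over the 4 ages in order. Sncg alone set its peak at P0.5, since without Sncg the sum was 5495, 6055, 6306 and 7515 CPM.

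Of the 9 active zone and priming genes, 7 were called lower and 2 (Rims1 and Unc13c) higher in adult than E15.5 spinal cord, where 84.4% of all genes were called, 58.1% lower and 26.3% higher. Under all 4 scalings the calls of 5 of the 7 (Rims2, Bsn, Unc13a, Unc13b and Erc2) and of both others held. Rims1, a scaffold that binds Rab3 and calcium channels, read 2.48, 1.22 and 2.14 CPM at E15.5, then 1.49, 1.24 and 1.54 (P0.5), 1.93, 1.55 and 1.66 (P10) and 2.9, 3.01 and 2.94 (adult). Rims2 read 23.8, 27.3 and 24.9 CPM at E15.5, then 19.8, 18.6 and 20.1 (P0.5), 29.4, 29.8 and 29.8 (P10) and 14.4, 13.5 and 15.1 (adult). Rims1 was higher in all adult libraries than at any other age, at a low level, and Rims2 was lowest there and highest at P10 (P10 to adult -1.0 ± 0.07, adjusted p = 5.3e-09).

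Unc13 (Munc13) proteins prime docked vesicles for fusion. Unc13a read 6.71, 6.66 and 6.24 CPM at E15.5, then 10.2, 9.02 and 9.89 (P0.5), 7.12, 7.7 and 7.56 (P10) and 2.19, 1.58 and 1.88 (adult). Unc13b read 2.4, 2.79 and 2.09 CPM at E15.5, then 1.06, 1 and 1.14 (P0.5), 1.25, 0.93 and 1.28 (P10) and 0.192, 0.0285 and 0.159 (adult). Unc13c read 5.64, 4.99 and 6.06 CPM at E15.5, then 4.83, 5.07 and 4.8 (P0.5), 17.8, 17.2 and 17 (P10) and 10.7, 6.82 and 8.73 (adult).

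Unc13a peaked at P0.5 and fell by 1.56 from P10 to adult (SE 0.08, adjusted p = 5.3e-10). Unc13b rested on only 13, 2 and 11 reads in the adult libraries, and its fall from E15.5 was 1.60 on the log2(CPM + 1) scale (adjusted p = 4.8e-10). Unc13c rose at P10 by 1.63 ± 0.11 (adjusted p = 2.1e-09), when all its libraries lay above those of other ages, and fell by 0.93 to the adult.

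Among the large scaffolds, Bsn (bassoon) rose at birth, from 7.64 ± 0.492 to 14.8 ± 1.17 CPM, and was 3.88 ± 0.295 at P10 and 3.71 ± 0.174 in the adult. Its relative Pclo (piccolo) had group means between 5.59 and 8.74 CPM. Erc2 (CAST) fell from 25.2 ± 1.17 CPM at E15.5 to 12.4 ± 0.834 at P0.5, was 11.9 ± 1.11 at P10, then fell to 5.42 ± 0.0909 in the adult. Ppfia3 (liprin-alpha-3) was 14.1 ± 0.461 CPM at E15.5, had its highest mean at P0.5, with libraries from 14 to 17 CPM, and was 9.69 ± 0.763 and 9.21 ± 0.702 at P10 and 2 months.

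All 5 members that act in endocytosis were called higher in adult than E15.5 spinal cord, where 26.3% of all genes were called higher. Synj1 (synaptojanin 1) went from 13.8 ± 1.47 to 37.9 ± 1.95 CPM and Sh3gl2 (endophilin A1) from 54.8 ± 2.25 to 103 ± 3.1. Dnm1 (dynamin 1) went from 51.3 ± 2.96 to 75.2 ± 2.01 CPM, Amph (amphiphysin) from 39.9 ± 3.52 to 56.7 ± 1.28, and Snap91 (AP180, a clathrin adaptor) from 136 ± 5.46 to 164 ± 2.89. All 5 calls held under each of the 4 scalings and without the intermediate libraries. The share of 26.3% is that under CPM, and after RLE scaling a larger share of all genes was called higher, as given below. The path differed: Dnm1 and Amph peaked at P0.5, at 90.8 ± 1.16 and 76.3 ± 2.43 CPM, while Snap91 was lowest there, at 100 ± 8.44.

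Other genes of the pathway were read from 2 further lists. Of 49 tested further release genes 16 were higher and 29 lower in adult than E15.5 spinal cord, with a median difference of -0.42, and after RLE scaling 21 and 22 (median -0.01). Of 36 further genes of endocytosis and vesicle recycling 18 were higher and 14 lower, with a median of 0.18, and after RLE scaling 23 and 10 (median 0.63), against all-gene medians of -0.38 and 0.02. Over all genes 26.3% were called higher and 58.1% lower, and after RLE scaling 41.9% and 40.7%, so the split of the release genes is near the background. From these lists the extreme genes were chosen after their values were seen. Mctp1, a calcium-binding membrane protein, rose from 2.17 ± 0.252 to 12.4 ± 0.722 CPM and Rph3a (rabphilin, a Rab3 effector) from 72 ± 0.437 to 270 ± 3.69. The calcium sensor Doc2b fell from 14.7 ± 1.77 to 0.975 ± 0.117 CPM and the synaptotagmin Syt17 from 27.9 ± 2.68 to 2.94 ± 0.112. Among endocytosis genes Pacsin1 (syndapin 1) rose from 46.1 ± 2.42 to 255 ± 12.8 CPM and Dnm3 from 12.4 ± 0.667 to 34.4 ± 2.12, and Sh3gl3 fell from 46.1 ± 5.15 to 16 ± 4.63. Pacsin1 was the largest rise of that list, at 2.44 ± 0.06 (adjusted p = 7.7e-15).

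The isoform balance was followed as the log2 ratio of (CPM + 1) of 2 related genes in each library, which library scaling hardly touches. Transcript lengths enter such a ratio, so only its change with age is read and not its height. Over the 4 ages 15 of 16 pairs changed in an exact permutation test of the between-age sum of squares (15400 arrangements of 12 libraries, one-sided for larger differences, adjusted over 16 pairs). The smallest p this test gave was 6.5e-05, reached by 7 pairs and the smallest it can give. Leaving out the intermediate libraries, 13 pairs were called, with 0.0095 as the smallest p. Rims1/Rims2 and Syn1/Syn3 then missed the threshold (adjusted p = 0.091 and 0.076, exact permutation test).

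Vamp1/Vamp2 shifted most. Its log2 ratio was -1.67 ± 0.14 at E15.5, 0.18 ± 0.08 at P0.5, 0.86 ± 0.08 at P10 and 2.42 in the adult, a 17.1-fold change of the ratio (exact permutation adjusted p = 1.5e-04). The ranges of the 4 ages did not overlap. Syngr1/Syngr3 went from -2.75 ± 0.05 to -0.23 ± 0.14, a 5.72-fold change, with its largest step between P0.5 and P10.

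Syt1/Syt2 held at -0.27 ± 0.16 and -0.16 ± 0.02 up to birth and dropped to -2.04 ± 0.07 at P10 and -2.75 ± 0.06 in the adult, a 5.58-fold change in favour of Syt2 (exact permutation adjusted p = 4.2e-04). Cplx1/Cplx2 stood at 2.34 ± 0.22 and 2.42 ± 0.09 up to birth and rose to 3.40 ± 0.08 and 4.61 ± 0.17, a 4.82-fold change in favour of Cplx1. Both pairs thus turned after birth, while Vamp1/Vamp2 had already turned by P0.5. Unc13a/Unc13c dropped from 0.20 ± 0.16 to -1.74 ± 0.14 (3.85-fold), with a rise to 0.86 ± 0.12 at P0.5 before it.

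The remaining pairs moved by smaller amounts or peaked in between. Sv2a/Sv2b fell by 1.34 and Sv2a/Sv2c by 1.0 from E15.5 to adult. Rims1/Rims2 rose by 1.23, Rab3a/Rab3c rose by 0.71 and Rab3a/Rab3b fell by 0.55. Syt4/Syt11 reached its lowest value at P10 (-2.67 ± 0.03), between -0.54 ± 0.03 at E15.5 and -1.56 ± 0.04 in the adult. Bsn/Pclo peaked at P0.5 (0.83 ± 0.05), as did Syn1/Syn3 (3.39 ± 0.10). Unc13a/Unc13b also read highest at P0.5 on this scale (2.37 ± 0.07, against 1.35 ± 0.06 in the adult), but adult Unc13b lay at 0.127 CPM, below the added 1 CPM. The plain ratio of its mean CPM was 2.69, 9.11, 6.45 and 14.9 over the 4 ages, highest in the adult, and with 0.1 CPM added adult minus E15.5 was 1.80 in place of 0.21. Sncb/Sncg was lowest at P0.5 (-5.34 ± 0.12) and highest at P10 (-3.00 ± 0.15). Syn1/Syn2 was the pair not called (exact permutation p = 0.067), with means between -0.91 and -0.65 at all ages. Leaving out adult replicate 1 or 2 in turn brought this pair under the threshold (adjusted p = 0.0037 and 0.045, exact permutation test), with adult minus E15.5 at 0.12 and -0.08.

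**Figure D3:**
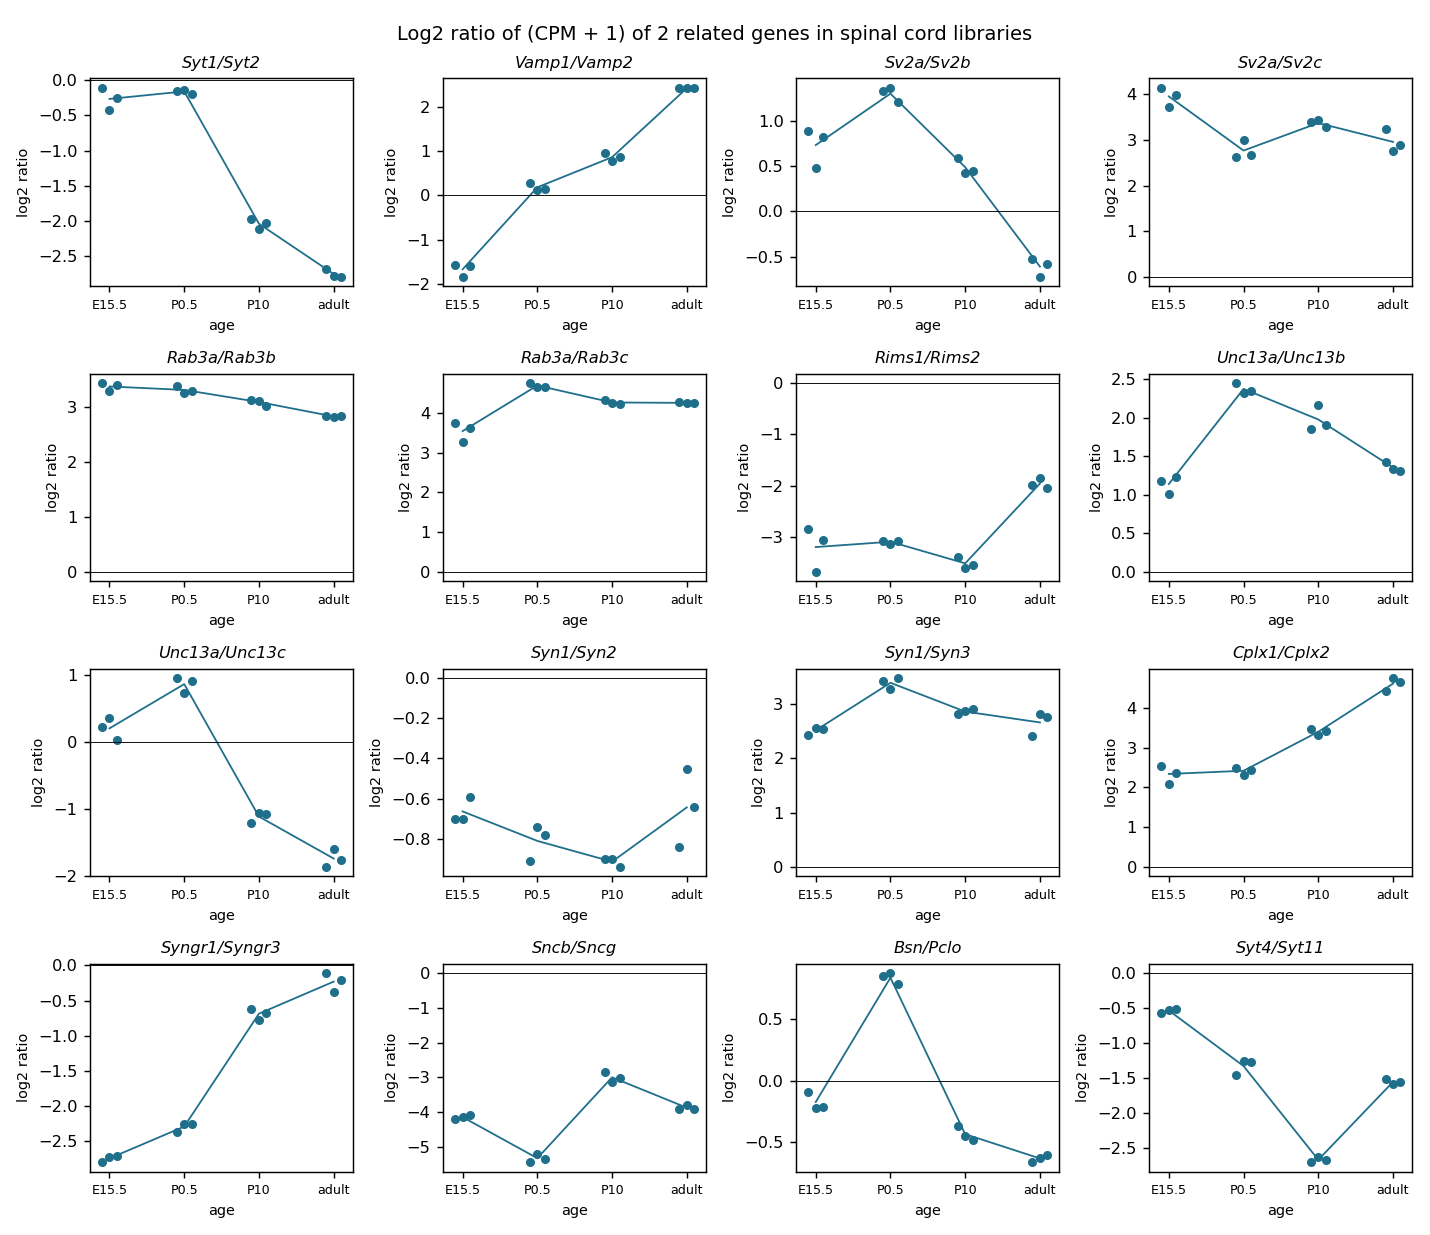
Log2 ratio of (CPM + 1) of 2 related genes in each spinal cord library by age, for 16 pairs (points are libraries, lines join group means; vertical scales differ between panels). Vamp1/Vamp2 rises from -1.67 to 2.42, Syt1/Syt2 falls from -0.27 to -2.75 after birth, and Bsn/Pclo peaks at P0.5.

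Diaphragm held far less of this RNA than spinal cord. The 43 genes summed to group means of 185, 144, 181 and 148 CPM in Cre-positive diaphragm over the 4 ages, against 7963 to 11867 in spinal cord. Cre-negative diaphragm had 169, 119, 176 and 182 CPM, and this background is not subtracted in the comparisons with spinal cord that follow. By limma on the 24 Cre-positive libraries, 42, 43, 42 and 42 members had lower values in muscle than in cord over the 4 ages in order. Over all genes 73.6, 75.3, 73 and 74.8% were called in these comparisons, and 52.1, 56.9, 53.1 and 55.3% were called lower (higher in 21.5, 18.4, 19.9 and 19.5%). The median member difference was -4.36, -5.09, -4.57 and -4.31, against all-gene medians of -0.58, -0.80, -0.63 and -0.72. The groups did not overlap for 42, 43, 43 and 43 members, against 81.4, 78.5, 80.4 and 79.7% of all genes. RLE scaling moved the all-gene medians up by 0.43 to 0.58 and kept most members lower: under all 4 scalings 42, 41, 42 and 40 fell. The share of all genes lower under all 4 scalings was not counted.

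Snap25 showed one of the widest gaps, from -7.07 ± 0.13 at E15.5 to -10.81 ± 0.13 in the adult (adjusted p = 3.7e-22). Cplx1 differed by -8.17 to -9.65 and Sncb by -7.17 to -7.67. Vamp2 differed less, by -3.78 ± 0.17 at E15.5 and -2.63 ± 0.17 in the adult. The level of Vamp2 was 22.8, 22.8, 33.1 and 18.6 CPM in Cre-positive diaphragm over the 4 ages. Syngr1, a synaptogyrin also made outside neurons, came closest to its spinal cord level among the members at 10 CPM or more: it read 41.3 CPM in adult Cre-positive diaphragm and 71.9 in spinal cord. Its difference at P0.5 and in the adult (-0.72 and -0.79) turned positive under quantile, RLE and TMM scaling.

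Unc13b was the member called higher in adult diaphragm (0.67 ± 0.19, adjusted p = 0.0035), from 0.803 CPM against 0.127 in spinal cord, and this call was lost without the intermediate libraries. Adult diaphragm without Cre also held Unc13b, at 1.04, 0.0228 and 2.12 CPM. Stxbp5 was not called at E15.5 (-0.52 ± 0.27, adjusted p = 0.088) and Unc13b not at P10 (-0.42 ± 0.19, adjusted p = 0.057). In the same diaphragm libraries the 5 skeletal muscle markers summed to 20552 to 66822 CPM and 6 neuron markers to 5.72 to 108 CPM. The part of this makeup in the differences was not tested.

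**Figure D4:**
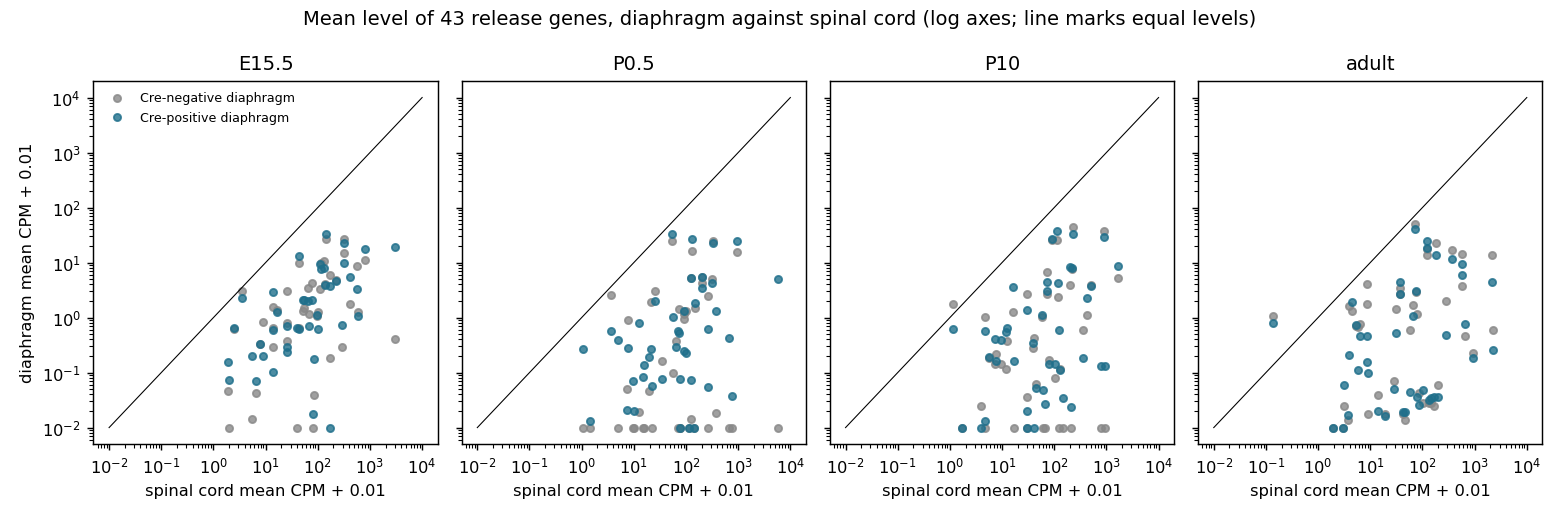
Group mean CPM + 0.01 of the 43 genes in diaphragm (vertical, Cre-negative grey, Cre-positive blue) against Cre-positive spinal cord (horizontal), by age, both axes logarithmic, with a line at equal levels. Points lie below the line except those of Unc13b, which stands above it in the adult in both genotypes and at P10 in Cre-negative diaphragm.

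The comparison of Cre-positive with Cre-negative diaphragm asks which RNA the tagged ribosomes add over the purification background. Of the 43 genes 29 reached 1 CPM in at least 3 of the 24 diaphragm libraries and were tested. The 14 others were Amph, Bsn, Ppfia3, Rab3c, Rims1, Rims2, Sncb, Sv2b, Sv2c, Syn1, Syn3, Syngr3, Unc13a and Unc13c. Calls numbered 1 at E15.5 (higher; 11% of all genes, 4.88% higher and 6.11% lower), 3 at P0.5 (2 higher and 1 lower; 27.7%, with 12.1% and 15.7%), 0 at P10 (1.45%) and 0 in the adult (12%), so at every age the members' share was under the background. At an unadjusted p under 0.05 limma called 1786 genes at P10 and 3519 in the adult over all genes tested. DESeq2 on the recovered reads called 2 members at P10 and 1 in the adult, and edgeR none at either age. The all-gene shares under DESeq2 and edgeR are not given here. Without the intermediate libraries no member was called at any age, against 0.0527, 0.813, 0 and 0.105% of all genes; at an unadjusted p under 0.05 limma then had 1036, 2335, 246 and 1042 genes. Of the 29 members 6, 7, 8 and 3 had groups that did not overlap, against 38.5, 39.3, 32.5 and 32.8% of all genes. No member was called for a change of its Cre difference between neighbouring ages (limma interaction term), against 9.9, 10.3 and 4.21% of all genes.

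Sncg was the member called at E15.5. It read 1.04, 0.149 and 0 CPM in the Cre-negative and 14.5, 27.5 and 15.3 CPM in the Cre-positive libraries, with no overlap. The fitted difference was 3.86 (adjusted p = 0.0021). Without the intermediate libraries it was 3.88 with adjusted p = 0.4, and edgeR on the recovered reads gave adjusted p = 0.065. At P0.5 Sncg had no read in the 3 Cre-negative libraries, where 3 reads amount to at most 0.044 CPM, and read 7.95, 0 and 6.93 CPM in the Cre-positive ones. These groups overlap at 0, and the call (adjusted p = 0.043) was lost when any library but Cre-positive replicate 2 was left out. Nor did the P0.5 call of Sncg hold under all 4 scalings. At P10 the Cre-negative libraries read 9.14, 1.18 and 5.34 CPM and the Cre-positive 12.9, 2.88 and 9.92. In the adult they read 13.6, 3.47 and 24.2 against 6.67, 2.98 and 3.36, so the groups overlapped at both ages. By the interaction test the Cre difference of Sncg was not called as changing between any neighbouring ages. The changes were all negative (-1.81, -1.36 and -1.90 in order of age), and the change from E15.5 to adult was not tested.

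Vamp1 read 2.95, 0.76 and 0.1 CPM in Cre-negative and 0.708, 0.546 and 0.555 in Cre-positive muscle at E15.5. At P0.5 the values were 0, 0.0252 and 0 against 1.88, 0.151 and 1.95, without overlap (difference 1.08, adjusted p = 0.036). This call was lost in 5 of 6 fits that left out 1 library (all but Cre-positive replicate 2, adjusted p = 0.059 to 0.15) and without the intermediate libraries (adjusted p = 0.5). Nor did the P0.5 call of Vamp1 hold under all 4 scalings. At P10 the Cre-negative libraries read 0.933, 1.1 and 1.28 and the Cre-positive 1.7, 2.62 and 2.52, again apart but not called. In the adult they read 0.56, 0.674 and 0.121 against 0.594, 0.879 and 0.774.

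Stxbp5 was the member called lower at P0.5, with 3.11, 2.14 and 2.3 CPM in Cre-negative and 0.446, 0.733 and 0.505 in Cre-positive libraries (-1.17, adjusted p = 0.017). The groups did not overlap. The call was lost without Cre-positive replicate 1 (adjusted p = 0.058) and without the intermediate libraries (adjusted p = 0.37). In those P0.5 libraries 4 hepatocyte markers summed to 51.8 to 127 CPM in Cre-negative and 1280 to 10307 CPM in Cre-positive diaphragm, and the part of that shift in these values was not tested.

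Snap25 had its diaphragm signal at E15.5 in both genotypes. Its Cre-negative libraries read 0.464, 11.3 and 14 CPM and its Cre-positive ones 2.78, 4.07 and 2.98. At P0.5 the Cre-negative libraries had no read, as at P10, and the Cre-positive read 0.0203, 0 and 0.0606 CPM, then 0.132, 0 and 0.236 at P10. The adult values were 0.673, 0.32 and 0.762 against 0.0955, 0.421 and 0.235, so no age showed Snap25 called as higher with Cre.

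Syt2 had no read in Cre-negative diaphragm at E15.5 and 0, 0 and 0.0222 CPM in Cre-positive. At P0.5 it read 0, 2.39 and 1.92 CPM without Cre and 0.162, 1.41 and 0 with Cre. The later values stayed at or under 0.239 CPM in both genotypes. Syt2, Vamp1 and Snap25, which were higher in adult than E15.5 spinal cord, thus stayed under 3 CPM in every Cre-positive diaphragm library from P0.5 on. The cholinergic genes Chat, Slc18a3 and Slc5a7 had no read in the 3 Cre-negative libraries of E15.5. With Cre, Chat read 0.157, 0 and 0.0777 CPM, Slc18a3 0.0225, 1.29 and 0.333, and Slc5a7 0.371, 0.178 and 0.355. Slc5a7 went the other way at P0.5, with 1.92, 0 and 0.61 CPM without Cre and 0.0101, 0 and 0 with Cre. At E15.5 the full list of 7 motor neuron markers overlapped between genotypes. It summed to 15.8 to 70.6 CPM in Cre-negative and 47.2 to 66 CPM in Cre-positive libraries. The general neuron markers were not higher with Cre at that age: their sum was 125 to 158 CPM in Cre-negative and 87.3 to 108 in Cre-positive libraries, and 3.63 to 19.7 CPM in both at all later ages. Rims1 had no read in any of the 12 Cre-negative libraries, and in Cre-positive diaphragm it had 17 reads at E15.5 and 0.0101 CPM in replicate 3 at P0.5.

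The genes with at least 10 CPM in Cre-positive diaphragm at most ages were Vamp2, Rab3a, Dnajc5 and Syngr1, and all were also present without Cre. Rab3a read 13 to 17 CPM in Cre-negative and 18.2 to 27.4 in Cre-positive libraries at P0.5, and 27.1 to 46.2 against 25.3 to 32.6 at P10. Dnajc5 ranged from 2.74 to 32.7 CPM in Cre-negative and from 21.1 to 41.3 CPM in Cre-positive libraries over all ages. None of the 4 was called in a Cre comparison. The further release genes gave 6, 10, 0 and 4 calls among 36 tested at the 4 ages, and the further endocytosis genes 3, 8, 1 and 3 among 33, against 11, 27.7, 1.45 and 12% of all genes. Without the intermediate libraries neither list had a call at any age.

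**Figure D5:**
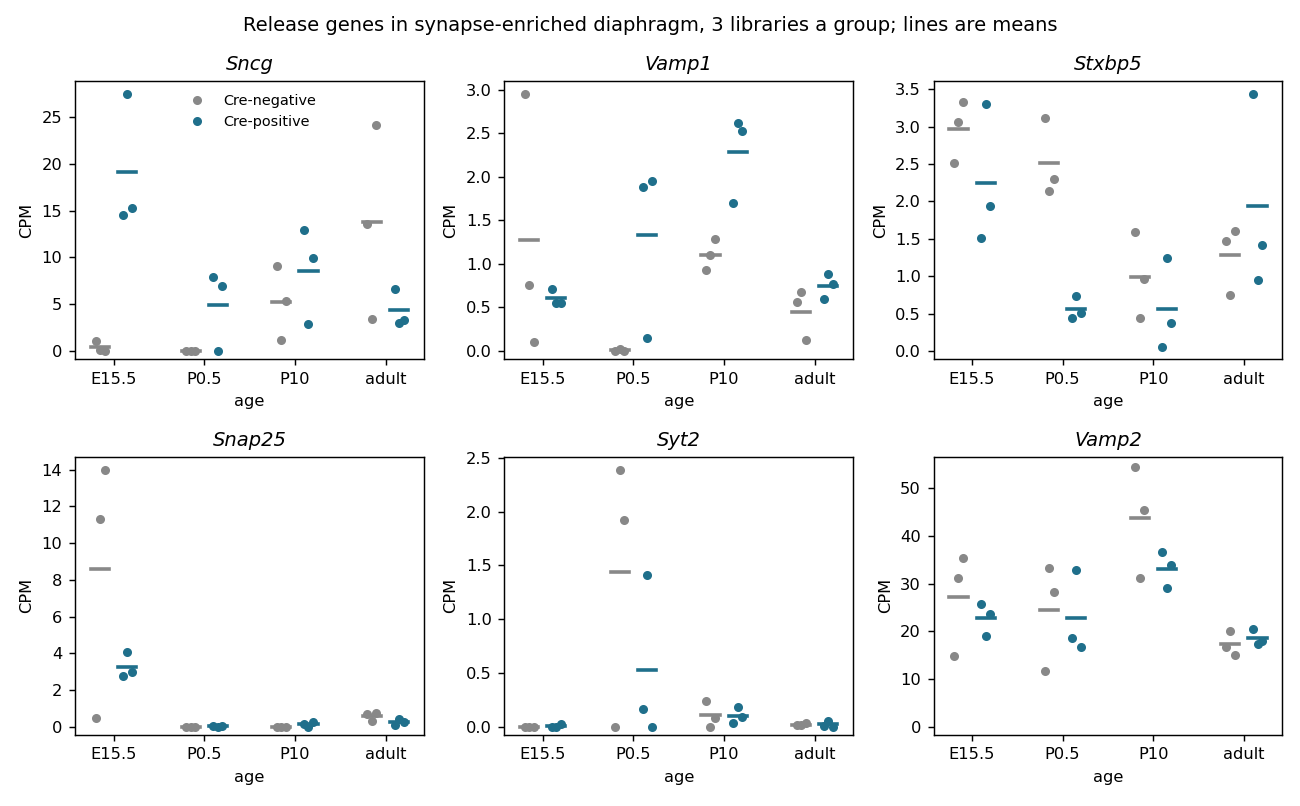
CPM of 6 genes in each synapse-enriched diaphragm library by age (points are libraries, lines are means, 3 libraries a group). Sncg at E15.5 reaches 14.5 to 27.5 CPM with Cre against at most 1.04 without, while Snap25, Syt2 and Vamp2 overlap between genotypes at E15.5.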

How the data were processed

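RNA of 36 libraries was purified through HA-tagged ribosomes and sequenced. Per the submitters' processing notes, reads were processed with Bowtie2 2.2.5, RSEM 1.2.12 and the mm10 build. The deposited table gives CPM per gene, normalized by the authors to 1000000 per library. Its low values are whole multiples of 1 read (tolerance 0.1 reads), so reads were recovered from the deposited CPM for edgeR 4.0.16 and DESeq2 1.42.0, which served as alternatives; the read step of P0.5 Cre-positive replicate 3 could not be fixed as firmly, so its recovered depth, and what rests on its reads, is less certain. The main test was limma 3.58.1 (trend, robust; R 4.3.3) on log2(CPM + 1), over genes with at least 1 CPM in at least 3 libraries, with Benjamini-Hochberg adjustment over all of them and a threshold of 0.05. Separate fits held 12 spinal cord, 24 diaphragm, and 24 Cre-positive libraries of both tissues. Isoform ratios were tested in spinal cord by exact permutation (scipy 1.17.1). The code was tested on simulated data. Deviations of same-numbered replicates from their group means had correlations of -0.19 to 0.12 over 12 comparisons. In 0 of 12 were all 3 over 0.1, a rule that the intermediate library alone can fail, so pairing is not excluded. Values for each library were given for a fixed set of isoform families and for Sncg, Syt2, Vamp1 and Snap25 in diaphragm, and group means for the other members. Members and lists were chosen with earlier results of these data known. Promoters came from RefSeq (GRCm38.p6) by gene symbol and gene ID.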

Additional observations from a re-analysis of the deposited data

How the results depend on the processing

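Of the results for single genes, 6998 stayed on their side of the threshold under an alternative, 129 newly passed it and 135 no longer passed it. A further 27 changed sign with a call in the main fit or the alternative. Sign changes of results called in neither fit were not counted as changes. Alternatives were another pseudocount, no filter on low values, quantile, RLE and TMM scaling, edgeR and DESeq2 on recovered reads, fits of only the compared groups, a replicate block, and fits without single or intermediate libraries. For changes of the Cre difference between ages, the fits without intermediate libraries and with RLE scaling were added after seeing the data.

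Members called for the Cre difference at E15.5 (1) numbered 4 without a filter, 2 with quantile scaling, 0 with edgeR, 2 in a fit of only the compared groups and 0 without the intermediate libraries, and 1 to 3 when 1 library was left out. At P0.5 (3) they numbered 6 with quantile scaling, 6 with edgeR, 10 with DESeq2, 0 in a fit of only the compared groups, 0 without the intermediate libraries, and 0 to 5 when 1 library was left out. At P10 (0) DESeq2 called 2, and leaving out 1 library called 0 each time. In the adult (0) 1 was called without a filter, 1 with quantile scaling, 1 with DESeq2, 1 in a fit of only the compared groups, and 0 to 1 when 1 library was left out. Spinal cord counts, in the order P0.5 versus E15.5, P10 versus P0.5, adult versus P10 and adult versus E15.5, ranged over 28 to 32, 31 to 35, 33 to 35 and 38 to 40 when 1 library was left out, and tissue counts over 42 to 43. With the replicate block the counts were 31, 37, 34 and 40 in spinal cord and 1, 3, 0 and 0 for Cre. Syn1/Syn2 then had adjusted p = 0.062 (exact permutation test), and the block changed no call of a pair. Apart from the fits without the intermediate libraries, all-gene shares under these alternatives are not given here. These counts therefore do not show whether members were called more often than other genes.

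Without the intermediate libraries Rims1/Rims2 (1.33) and Syn1/Syn3 (0.12) no longer passed the threshold, and Syn1/Syn2 ranged from -0.08 to 0.12 when 1 library was left out. From P10 to adult, quantile scaling turned Stxbp5 to 0.24 and Bsn to 0.24. From E15.5 to adult, Syt4 became 0.29 with RLE, 0.29 with TMM, 0.26 with edgeR and 0.26 with DESeq2, and Pclo 0.08 with quantile scaling. Sncb became 0.28 with RLE and TMM and 0.26 with DESeq2, and Sncg 0.01 with RLE and TMM. Dnajc5 became 0.25 with RLE and TMM and 0.23 with edgeR and DESeq2. Between tissues at P0.5, Unc13b became 0.07 with quantile scaling, and Syngr1 0.26 with quantile scaling, 0.08 with RLE, 0.27 with TMM, 0.38 with edgeR and 0.12 with DESeq2. In the adult Syngr1 became 0.43, 0.03, 0.14, 0.23 and 0.05 in that order. The cause was not tested. Depth limits values near 0.0471 CPM, where 3 reads lie.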
